A study of Homo sapiens with 8 samples.

Results

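Cells of MDA-MB-231, an established human triple-negative breast cancer line, that had received the compound 1-SO and were then irradiated with UV-A were compared with cells that had received solvent and stayed dark. The comparison takes 2 of the 8 libraries of the study, the 1-SO UV-A and vehicle dark libraries of round 1, chosen by their labels. 1-SO is (5-oxo-2-dibenzothienylmethyl)triphenylphosphonium, which the cells had for 24 h at 10 µM; vehicle means 1% DMSO. Irradiation lasted 30 min under 8 bulbs of 325 to 375 nm. Plate and light are the same thing, since 1 plate of 600000 cells per well was irradiated and its partner kept dark. Round 1, with cells at passage 8, also held 1 vehicle UV-A library and 1 library of 1-SO in the dark. Round 2, at passage 32 to 34, held 1 library each of vehicle dark, vehicle UV-A, and 1-S in the dark and with UV-A. 1-S is the related compound without the oxo group. How long after irradiation the cells were lysed is not stated in the labels.

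The question the comparison addresses is what compound and light together did to the transcriptome, relative to cells with neither. Reads counted in genes came to 22.2 M for 1-SO UV-A and 18.8 M for vehicle dark, with 15.8 and 17.8 M for the other 2 libraries of round 1. With 1 library a side there is no replicate check, and in bulk RNA fewer cells of a type and less RNA per cell cannot be told apart. A ratio between the 2 libraries is therefore given first, as log2 of the scaled counts per M reads (CPM), with a 95% exact interval that covers counting error only. "Rose" and "fell" are kept for genes that passed the quasi-likelihood test of edgeR at an adjusted p of 0.05. That test was fitted over all 8 libraries and took its spread from the vehicle libraries, so it assumes that a lone compound library varies like them. The spread of a gene rests on 1 degree of freedom of its own and about 26 shared across genes. A small adjusted p is therefore not a spread measured for that gene alone. The 1 degree of freedom is how far the light response in vehicle differed between the rounds, which also differ in passage. The fitted vehicle dark level of round 1 shifts with that difference. A fitted change can therefore depart from the ratio of the libraries compared, as it does for MMP1 below. Levels are in FPKM, which corrects read counts for gene length and library size. FPKM uses library totals, while the ratios use scaled counts. By library totals the median gene was 0.15 (log2) higher in 1-SO UV-A than in vehicle dark, against 0 when scaled. Pairs of FPKM values thus give larger rises and smaller falls than the ratios do. Markers of the line were present in both libraries, with vimentin (VIM) at 303 FPKM in vehicle dark and 283 in 1-SO UV-A, and CD44 at 147 and 132. Of the 11 markers of the line that were tested, 5 fell, each at least 2-fold lower, and the list median was -0.79. Of 5 luminal or epithelial markers tested 1 rose, FOXA1, at 0.093 and 0.692 FPKM. Of 22 marker genes of blood, endothelial, fibroblast and adipose cells that were found in the tables, 2 were tested, and the higher of them, COL1A1, was at 1.65 and 2.67 FPKM.

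Of 12696 genes tested, 690 (5.43%) were at least 2-fold higher and 749 (5.9%) at least 2-fold lower in the 1-SO UV-A library. The balance of these counts turned with the scale: library totals alone gave 948 higher and 551 lower, and log2(FPKM + 0.1) gave 873 and 525. In the test, 794 genes (6.25%) rose and 1247 (9.82%) fell, while limma on log2(FPKM + 1) called 1248 higher and 841 lower, the opposite balance. Both rules were met by 328 higher genes, 41.3% of those that rose and 47.5% of those at least 2-fold higher, and by 601 lower genes, 48.2% and 80.2% of the corresponding lists. At least 4-fold differences were seen for 105 higher and 120 lower genes. Either treatment alone gave fewer genes at least 2-fold apart in the same round: 201 higher (1.58%) and 166 lower (1.31%) with light in vehicle, and 118 higher (0.929%) and 82 lower (0.646%) with 1-SO in the dark. Against the vehicle UV-A library, the 1-SO UV-A library had 398 genes (3.13%) at least 2-fold higher and 419 (3.3%) lower. All but the last of these comparisons share the vehicle dark library. Below, light in vehicle means the round 1 pair unless round 2 is named. The list counts below stand beside the shares of all genes tested that rose (6.25%) and fell (9.82%). The authors' deposited table for the same pair puts 145 genes above and 261 below vehicle dark when its own adjusted p of 0.05 is applied. Of the 318 of those that were tested here, 313 were called in the same direction. That table rests on the same counts of the same libraries, so the shared direction is not an independent check.

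**Figure D1:**
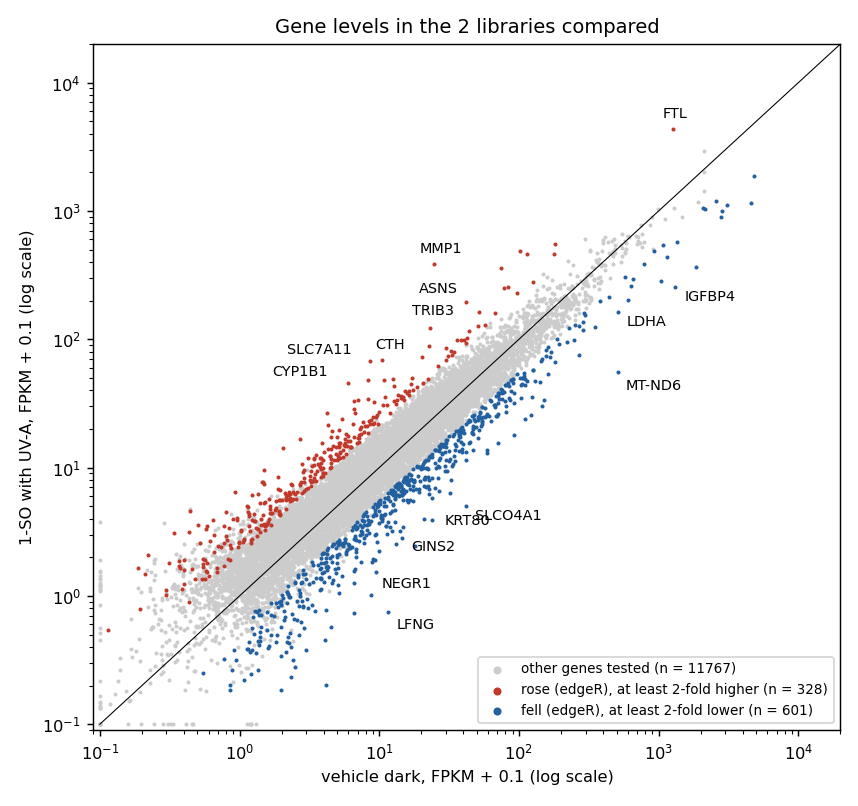
Level of each of the 12696 genes tested in vehicle dark (x axis) and 1-SO with UV-A (y axis), in FPKM with 0.1 added, on log axes; each point is a gene. Red points are the 328 genes that rose and were at least 2-fold higher, blue points the 601 that fell and were at least 2-fold lower, and MMP1 lies farthest above the line of equality among the genes named in red.

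The highest ratio among called protein-coding genes at 5 FPKM or more in either library was that of MMP1, interstitial collagenase, on chromosome 11 (102789920 to 102798160, GRCh38, minus strand). MMP1 was at 24.7 FPKM in vehicle dark, 25.4 in 1-SO dark, 141 in vehicle UV-A and 387 for 1-SO UV-A, a log2 ratio of 3.82 (3.73 to 3.92) between the libraries compared. It was low in both dark libraries, higher with light in vehicle and highest with compound and light. It rose with a fitted log2 change of 3.08 ± 0.40 (SE) and an edgeR adjusted p of 4.6e-06. Next came SLC7A11, the cystine importer, with 8.44, 9.72, 21 and 67.5 FPKM in the same order of libraries. CYP1B1, a xenobiotic-metabolising enzyme, followed at 5.91, 7.53, 25.7 and 45.5 FPKM. ADM2, a peptide hormone gene, behaved otherwise under light alone: it was at 1.94 FPKM (vehicle dark), 1.59 (1-SO dark), 1.89 (vehicle UV-A) and 14.2 (1-SO UV-A), so that 1 library stood apart from the other 3.

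At the lower end stood LFNG, a glycosyltransferase that modifies Notch receptors, on chromosome 7 (2512529 to 2529177, GRCh38, plus strand). LFNG was at 11.4 FPKM in vehicle dark, 11.5 in 1-SO dark, 4.79 in vehicle UV-A and 0.644 for 1-SO UV-A. Its log2 ratio was -4.27 (-4.83 to -3.79) and its edgeR adjusted p 1e-07. SLCO4A1, an organic anion transporter, went from 41.8 FPKM in vehicle dark to 4.92, with 42.4 for 1-SO dark and 29.5 for vehicle UV-A, and also fell. IGFBP4, a secreted binding protein for insulin-like growth factors, was the most abundant of the 15 lowest genes: its 1319 FPKM in vehicle dark compared with 1277 for 1-SO dark, 878 for vehicle UV-A and 257 for 1-SO UV-A. The others of the 15 lowest included 2 keratins (KRT80 and KRT7), the replication factor GINS2, and ID1, an inhibitor of basic helix-loop-helix factors, at 32.1 and 6.19 FPKM in the libraries compared. Among the 15 highest was also CDKN1C, the p57 inhibitor of cyclin-dependent kinases, at a log2 ratio of 2.21.

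Triphenylphosphonium is a lipophilic cation that accumulates in mitochondria along their membrane potential. The mitochondrial genome encodes 13 proteins of the respiratory chain and ATP synthase, whose mRNAs are cut from long transcripts of its strands; the gene of MT-ND6 lies on the opposite strand from those of the other mRNAs. All 13 mRNAs were tested, 12 fell and 12 were at least 2-fold lower. The gene that fell by less than 2-fold was MT-ND1, at a log2 ratio of -0.86, and the one not called was MT-ATP8, at -1.44. The median log2 ratio of the list was -1.65, against 0 over all genes tested. It was 0.06 with light in vehicle and 0.22 with 1-SO in the dark. Mitochondrial reads made up 0.93% of the 1-SO UV-A library, against 2.58% for vehicle dark, 3.02% for 1-SO dark and 2.76% for vehicle UV-A.

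MT-ND6, a subunit of complex I, had the lowest ratio of the 13. Its level was 514 FPKM (vehicle dark), 614 (1-SO dark), 513 (vehicle UV-A) and 55.1 (1-SO UV-A), a log2 ratio of -3.37 (-3.49 to -3.25) with an edgeR adjusted p of 3.3e-11. The other 12 lay between -2.48 for MT-ND3 and -0.86 for MT-ND1. MT-ND3, of complex I, was at 1857, 2236, 1568 and 367 FPKM in that order, and MT-CO2, of cytochrome oxidase, at 4575, 5348, 4610 and 1163. MT-CYB, of complex III, was at 1034 FPKM in vehicle dark and 283 in 1-SO UV-A, and MT-CO1, of cytochrome oxidase, at 4816 and 1855. For MT-ND6 and each of these genes the 3 other libraries of round 1 lay together and the 1-SO UV-A library lay below them. MT-ATP8 and MT-ATP6 overlap, as do MT-ND4L and MT-ND4, and mitochondrial genes have nuclear copies, so how reads were split between them is uncertain. The strand setting of the counting is not stated, so reads counted for MT-ND6 may come from either strand. The libraries were poly-T selected, so these are levels of captured RNA, and how capture differed between the 13 mRNAs was not tested. Of 35 nuclear complex I subunits 1 rose and 0 fell, 30 had a ratio below 0, and the median was -0.33 (-0.28 with light in vehicle). Of 36 nuclear subunits of complexes II to V 0 rose and 4 fell, beside 9.82% of all genes that fell; 35 had a ratio below 0, and the median was -0.45 (-0.40 with light in vehicle). Light in the vehicle of round 2 gave the complex I subunits a median of 0.03 and those of complexes II to V 0.04. Among 25 tested genes of mitochondrial transcription and RNA stability, 0 rose and 2 fell, at a median of -0.14. Of all genes tested, 6.25% rose and 9.82% fell.

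**Figure D2:**
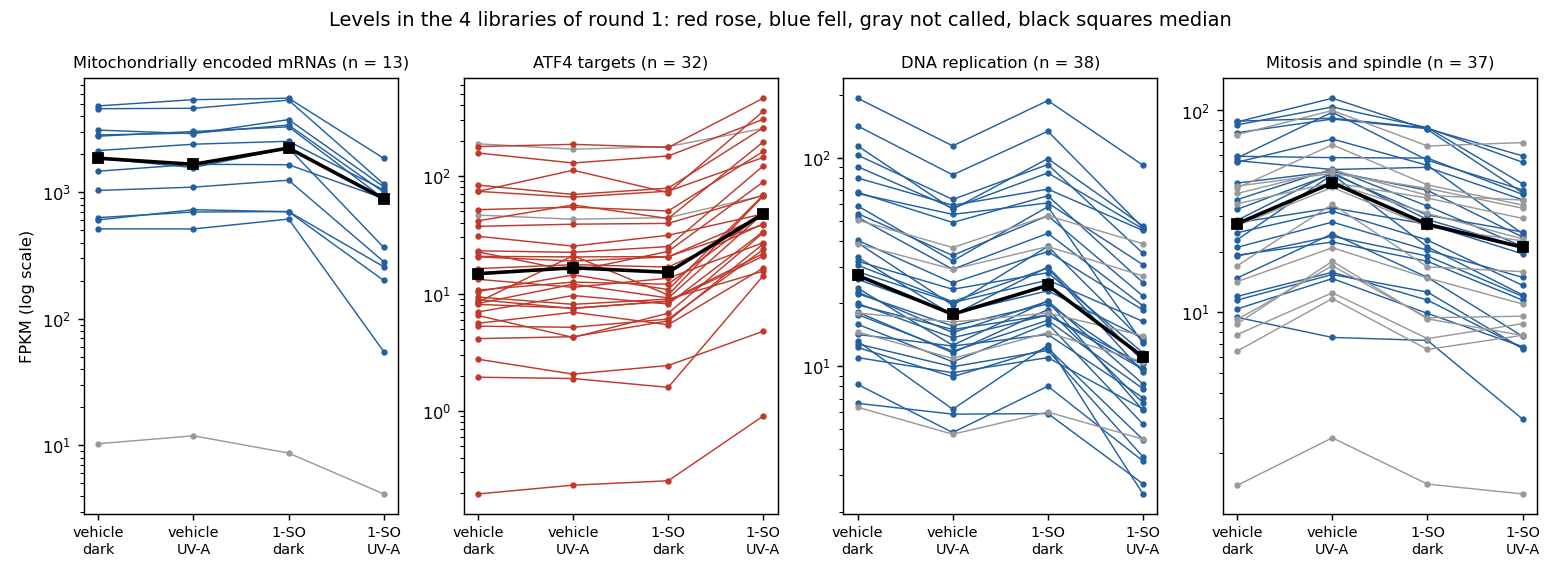
FPKM (log axis) of the tested members of 4 gene lists in the 4 libraries of round 1, named on the x axis; each line is a gene, red where it rose in 1-SO UV-A against vehicle dark, blue where it fell and gray where it was not called, and black squares are list medians. The median of the ATF4 targets was 14.8 FPKM in vehicle dark and 47.8 in 1-SO UV-A, and that of the DNA replication genes 27.2 and 11.1.

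ATF4 is the transcription factor of the integrated stress response: when eIF2 is phosphorylated, general translation drops while ATF4 mRNA is translated better, and its targets supply amino acids and tune the response. Of 32 tested ATF4 targets 30 rose and 0 fell, with 22 at least 2-fold higher, none at least 2-fold lower and a median log2 ratio of 1.44. The 2 that were not called, the amino acid transporters SLC7A5 and SLC7A1, were at 0.29 and 0.40. Light in vehicle gave the list a median of -0.10, and 1-SO in the dark 0.00. ATF4 mRNA itself was at 149 FPKM (vehicle dark), 158 (1-SO dark), 145 (vehicle UV-A) and 321 (1-SO UV-A), and it rose with an edgeR adjusted p of 0.00072.

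The members of the list ranged over several roles, and their levels follow as vehicle dark, then 1-SO dark, then vehicle UV-A, then 1-SO UV-A. Among regulators, TRIB3, a pseudokinase that restrains the response, was at 23.1, 25.1, 22.4 and 122 FPKM in the same order, with a log2 ratio of 2.26 and an edgeR adjusted p of 3.3e-09. DDIT3, the stress factor CHOP, was at 5.27, 6.06, 5.16 and 23.7 FPKM. PPP1R15A, which directs the dephosphorylation of eIF2, had 74, 72.1, 112 and 356. Among enzymes, CTH, of cysteine synthesis, was at 10.4, 10.8, 14.4 and 68.9 FPKM, and ASNS, asparagine synthetase, at 41.5, 43.5, 56.7 and 195. The serine pathway enzymes PHGDH, PSAT1 and PSPH rose at log2 ratios of 1.01, 1.47 and 0.75. CHAC1, which degrades glutathione, was at 8.23, 9.16, 12 and 48 FPKM. Among secreted products, GDF15, a stress cytokine, was at 6.5, 6.8, 4.23 and 32.9 FPKM. In each of these genes the 1-SO UV-A library stood above the other 3, which differed little beside it; vehicle UV-A was the highest of the 3 for CTH, ASNS, CHAC1 and PPP1R15A.

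Other lists of amino acid supply and protein folding held both called and uncalled genes. The lists are not separate: SLC7A11, at a log2 ratio of 2.85, has the highest ratio of the ATF4, transporter and NRF2 lists. Shared genes are counted in each list that holds them. Of 12 amino acid transporters 8 rose and 0 fell, at a median of 0.85; SLC3A2, the heavy chain that partners SLC7A11, was at 178 FPKM in vehicle dark and 459 in 1-SO UV-A. Of 20 cytosolic tRNA synthetases, which charge tRNAs with amino acids, 7 rose and 1 fell. GARS, for glycine, was at 97.3 and 231 FPKM and SARS, for serine, at 125 and 280, while FARSB, a subunit of the phenylalanine enzyme, fell from 18.7 to 11. Of 27 genes of the unfolded protein response of the endoplasmic reticulum 10 rose and 0 fell, at a median of 0.34. HSPA5, the main chaperone of that compartment, was at 297 FPKM (vehicle dark), 301 (1-SO dark), 297 (vehicle UV-A) and 603 (1-SO UV-A). ERN1, which senses unfolded proteins, was at 4.4 and 17.4 FPKM in the libraries compared, and its target XBP1 at 34.2 and 79.6.

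Promoters, taken from RefSeq (GRCh38.p14) as 250 bases before to 50 after the annotated start, were matched for 9073 of the 12696 genes tested and searched on both strands. The C/EBP-ATF composite site TTGCATCA was in 0.485% of all of them. It was in 6 of the 16 synthetase promoters matched (37.5%). Of those 6 genes 4 rose, beside 7 of all 20 synthetases tested. The site was also in 1 of 25 promoters of the ATF4 target list, that of CHAC1, which rose. The following lines show the site in capitals within 30 bases for these 5 genes that rose; where it reads TGATGCAA it lies on the other strand.
CHAC1 (chr15:40953251-40953280, plus strand): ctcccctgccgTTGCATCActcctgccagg
CARS (chr11:3057407-3057436, minus strand): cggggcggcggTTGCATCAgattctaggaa
AARS (chr16:70289675-70289704, minus strand): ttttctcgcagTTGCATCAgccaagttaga
MARS (chr12:57488053-57488082, plus strand): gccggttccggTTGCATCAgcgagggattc
NARS (chr18:57621804-57621833, minus strand): tctacgctctcTGATGCAAcgccggaatcg
For the unfolded protein response, the endoplasmic reticulum stress element, a CCAAT box followed after 9 bases by CCACG, was in 0.154% of all promoters and in 7 of 25 of the list (28.0%). Of those 7 genes 3 rose and 4 were not called, beside 10 and 17 of all 27 genes of the list that were tested. The 3 that rose carry it as follows, with the element in capitals and the other strand shown where it begins CGTGG.
ERO1LB (chr1:236282177-236282206, minus strand): gcccgCGTGGTCCCGCCTCATTGGccgccg
XBP1 (chr22:28800597-28800626, minus strand): gctggCCAATCGCGGAGGGCCACGaccgta
HSPA5 (chr9:125241385-125241414, minus strand): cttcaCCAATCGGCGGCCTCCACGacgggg
A match describes these letters in this window and says nothing of binding.

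NRF2 is the factor that turns on antioxidant and detoxifying genes under electrophiles and oxidants. Of 25 tested NRF2 targets 11 rose and 1 fell, 12 were at least 2-fold higher, and the median was 0.89. Light in vehicle gave the same genes a median of 0.43 and 1-SO in the dark -0.02. Light in the vehicle of round 2 gave 0.01. The ferritin chains FTH1 and FTL, which store iron, were at 102 and 488 FPKM and at 1272 and 4373 in the libraries compared, with 207 and 2622 in vehicle UV-A; both have many processed copies in the genome, so their reads may be shared. HMOX1, heme oxygenase 1, was at 6.51 FPKM (vehicle dark), 5.9 (1-SO dark), 8.92 (vehicle UV-A) and 28.3 (1-SO UV-A). NQO1, a quinone reductase, was nearly the same in both irradiated libraries: 50.7 FPKM in vehicle dark, 49.7 in 1-SO dark, 128 in vehicle UV-A and 127 for 1-SO UV-A. SQSTM1, an autophagy receptor, was at 114 FPKM in both dark libraries, 196 in vehicle UV-A and 461 for 1-SO UV-A. Of 23 autophagy receptors and LC3-family genes 7 rose and 0 fell, among them GABARAPL1 at 12.4 and 48.8 FPKM and MAP1LC3B at 35.8 and 99.3 in vehicle dark and 1-SO UV-A. Among 16 antioxidant enzymes, by contrast, 1 rose and 5 fell, GPX1 at 187 and 101 FPKM and GPX4 at 170 and 102.

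The aryl hydrocarbon receptor induces enzymes of xenobiotic metabolism when it binds ligands, and tryptophan photoproducts are among them. Of 10 tested genes of the receptor and its targets 3 rose and 1 fell. The median was 0.97, beside 0.99 for light in vehicle in round 1 and -0.15 in round 2. CYP1A1 was at 1.76 FPKM in vehicle dark, 2.26 in 1-SO dark, 8.15 in vehicle UV-A and 5.88 for 1-SO UV-A, and was not called (edgeR adjusted p 0.13). TIPARP, a feedback inhibitor of the receptor, was at 17.1, 18, 34.9 and 49.4 in that order and rose. ALDH3A1 had the other direction: 1.49, 1.15 and 3.18 FPKM in those 3 libraries and 0.294 in 1-SO UV-A, and it fell.

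Immediate early genes, which encode short-lived transcription factors, were split. Of 28 tested 12 rose and 1 fell, at a median of 0.62 (0.06 with light in vehicle). FOS was at 3.01 FPKM in vehicle dark, 4.27 in 1-SO dark, 7.97 in vehicle UV-A and 11.9 for 1-SO UV-A; EGR1 had 20.1, 24.5, 48.2 and 72.9. JUN, which pairs with FOS, was at 62.2, 57.9, 48.5 and 44.8 FPKM and was not called. Regulators of the cell cycle and of cell death were also followed. CDKN1A, the p21 inhibitor of cyclin-dependent kinases, was at 78.2, 74, 81.4 and 250 FPKM, and BBC3, the cell-death protein PUMA, at 8.4, 8.81, 8.12 and 23.2, both standing apart in 1-SO UV-A alone. Of 15 genes of the BCL2 family and a death receptor 3 rose and 2 fell, among them BID, which relays death receptor signals, from 11.8 to 4.33 FPKM. Of 18 cytokine and feedback genes of NF-kB 4 rose and 3 fell: IL8, the neutrophil chemokine, was at 7.08 and 18 FPKM, and IL11, a cytokine that signals through the shared receptor of interleukin 6, at 46.6 and 13.6. Of 23 interferon-stimulated genes 1 rose and 3 fell, beside 6.25% and 9.82% of all genes tested, at a median of -0.17. Of 16 genes of TGF-beta and BMP feedback 1 rose, ID2, and 7 fell, ID1 among them.

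Replication of DNA needs helicases, polymerases, clamps and nucleotide enzymes that are made as cells enter S phase under E2F factors. Of 38 tested replication genes 33 fell, 0 rose and 30 were at least 2-fold lower, and the median log2 ratio was -1.39. Light in vehicle gave -0.63 and 1-SO in the dark -0.11, and against the vehicle UV-A library the median was -0.71. TYMS, thymidylate synthase, was at 58.8 FPKM in vehicle dark, 58.2 in 1-SO dark, 32 in vehicle UV-A and 12.9 for 1-SO UV-A. MCM5, of the replicative helicase, had 33.3, 29.9, 17.6 and 10.6, and PCNA, the sliding clamp, 193, 188, 114 and 92.1. Here, in round 1, the dark libraries lay together, vehicle UV-A below them and 1-SO UV-A lowest. The vehicle pair of round 2 did not repeat the lower level under light: its list median was 0.14. The 5 members that were not called, GINS3, RFC5, POLD3, RFC4 and PRIM2, had ratios from -0.66 to -0.51. Of 21 E2F factors, G1 cyclins and their inhibitors 10 fell and 2 rose. E2F1 was at 71 FPKM in vehicle dark, 64.9 in 1-SO dark, 34.6 in vehicle UV-A and 15.5 for 1-SO UV-A. CCND1, cyclin D1, fell from 253 to 128, while CCND2, cyclin D2, rose from 1.35 to 7.62 and CDKN1A rose as above. Of 31 DNA repair genes 12 fell and 0 rose, UNG, uracil glycosylase, from 121 to 25.8.

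Genes of mitosis stood in another order across the libraries. Of 37 tested 23 fell and 0 rose, 9 of them at least 2-fold lower, at a median of -0.66. Light in vehicle gave a median of 0.35 (0.16 in round 2), and against vehicle UV-A the median was -1.03. PLK1, a mitotic kinase, was at 14.8 FPKM in vehicle dark, 14.9 in 1-SO dark, 24.5 in vehicle UV-A and 7.61 for 1-SO UV-A. KIF20A, a kinesin of cytokinesis, was at 22.9, 21.1, 48.2 and 12.2, and CCNB1, cyclin B1, at 58.2, 56.7, 98.1 and 40.4. For these genes vehicle UV-A was the highest library and 1-SO UV-A the lowest. MKI67, the proliferation antigen, was at 24.8, 22.8, 31.7 and 13.6 FPKM, and BIRC5, survivin, fell from 9.44 to 2.96. The 14 not called lay between -0.51 and 0.11.

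The E2F sites TTTCCCGC and TTTGGCGC were in 3.84% of all promoters and in 15 of 33 replication promoters (45.5%), 14 of them of genes that fell. Of all 38 replication genes tested 33 fell. The E2F sites were in 8.07% of promoters of genes that fell at least 2-fold and in 1.31% of those that rose at least 2-fold. Replication genes that fell at least 2-fold are counted in the first share. Other letters were searched too. In promoters of genes that rose at least 2-fold, the AP-1 letters TGANTCA were in 10.5%, against 4.45% of all. The antioxidant response core TGACNNNGC was in 18.3% and 15.2%, and the aryl hydrocarbon receptor core GCGTG in 49.3% and 51.6%. The 4 replication genes with the lowest ratios among those with an E2F site carry it as shown, in capitals on either strand.
GINS2 (chr16:85688967-85688996, minus strand): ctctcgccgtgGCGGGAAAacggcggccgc
TYMS (chr18:657603-657632, plus strand): gcgggacggccGCGGGAAAaggcgcgcgga
MCM3 (chr6:52284898-52284927, minus strand): cggatggtacgTTTCCCGCcaccgcggggc
MCM6 (chr2:135876577-135876606, minus strand): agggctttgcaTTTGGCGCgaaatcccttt
The CHR element TTTGAA of cell-cycle promoters was in 9.53% of all promoters and in 20 of 32 of the mitosis list (62.5%), and CCAAT in 37.1% and 78.1%. Of those 20 genes 13 fell and 7 were not called, beside 23 and 14 of all 37 mitosis genes tested. The 4 lowest carry the CHR letters as follows, TTCAAA being the other strand.
ANLN (chr7:36389824-36389853, plus strand): tcggcgctgaaaTTCAAAtttgaacggctg
CDC20 (chr1:43358791-43358820, plus strand): cctctcgtacccTTCAAAtcgcgctccgcc
TOP2A (chr17:40418073-40418102, minus strand): cgagtggtgcctTTTGAAgcctctctagtc
PLK1 (chr16:23678848-23678877, plus strand): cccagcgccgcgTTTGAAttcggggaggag

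Among lists of central metabolism, calls were mostly lower, and many members were not called. Of 24 glycolysis genes 12 fell, 1 rose and 11 were not called, at a median of -0.75 (-0.35 with light in vehicle). LDHA, lactate dehydrogenase A, was at 512 FPKM in vehicle dark, 497 in 1-SO dark, 344 in vehicle UV-A and 163 for 1-SO UV-A, and ENO1, enolase 1, at 1354, 1284, 930 and 573. GAPDH was at 790 in vehicle dark and 569 in 1-SO UV-A and was not called. Light in the vehicle of round 2 gave the glycolysis genes a median of 0.01 and the cytosolic ribosomal protein genes 0.07. The gene that rose was SLC2A3, a neuronal-type glucose transporter, from 9.85 to 27.2 FPKM, while SLC2A1, the ubiquitous one, fell from 160 to 87.6. Of 16 enzymes of the citric acid cycle 6 fell and 10 were not called, and of 26 genes of cholesterol and fatty acid synthesis 9 fell and 17 were not called, at medians of -0.51 and -0.53. None of the 54 cytosolic ribosomal protein genes was called in either direction; their median was -0.18, against -0.48 with light in vehicle.

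**Figure D3:**
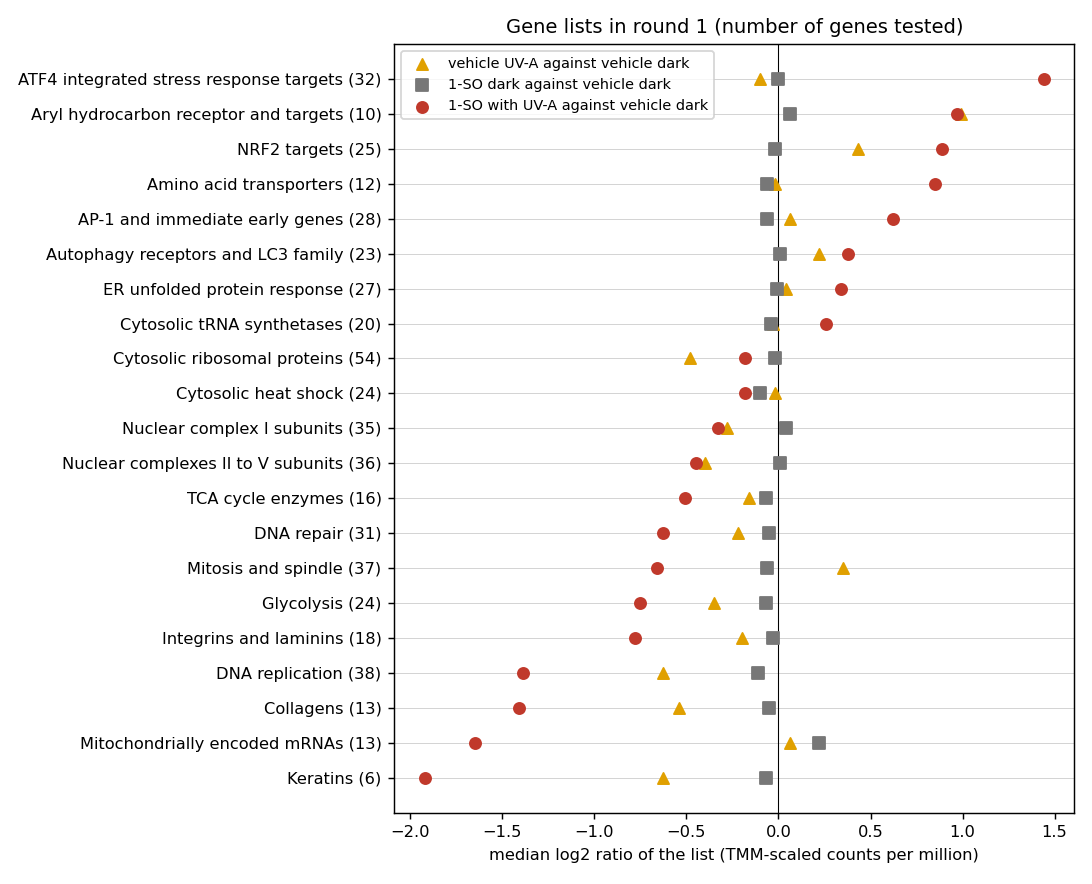
Median log2 ratio (x axis, scaled CPM) of 21 gene lists in 3 comparisons of round 1 that share the vehicle dark library; circles are 1-SO with UV-A, triangles vehicle UV-A and squares 1-SO dark, and the number of genes tested stands behind each list name. The ATF4 targets are at 1.44 for the circle with -0.10 and 0.00 for the other marks, the mitosis genes at -0.66 with 0.35 for vehicle UV-A, and the keratins at -1.92.

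Lists of the cell surface, skeleton and matrix held genes that moved both ways. Of 6 keratins tested 5 fell, at a median of -1.92. KRT81, a hair keratin, was at 59.4 FPKM in vehicle dark, 61 in 1-SO dark, 17.4 in vehicle UV-A and 13.6 for 1-SO UV-A, so both irradiated libraries lay far below both dark ones. KRT80 was at 23.7, 23.2, 15.2 and 3.83, and KRT19, not called, at 242 and 250 in the libraries compared. Of 13 collagens 10 fell, at a median of -1.41 (-0.54 with light in vehicle). COL13A1, a membrane collagen, was at 124, 119, 89 and 35.1 FPKM, and COL4A2, of basement membranes, at 32.9, 30.7, 17.8 and 10.1. Light in the vehicle of round 2 gave the collagens a median of -0.07. For the keratins the median with light in vehicle was -0.63 in round 1 and -0.12 in round 2. Of 18 integrins and laminins 9 fell, ITGB5 from 84.8 to 34.7. Among 13 matrix proteases and inhibitors 3 rose and 4 fell: beside MMP1, PLAU, urokinase, fell from 147 to 30 FPKM and TIMP3, an inhibitor of metalloproteases, from 110 to 23.8. Of 6 cystatins 4 fell; CST1, CST2 and CST4 are close copies, so their counts may share reads. The 5 markers of the line that fell were S100A4, from 270 to 74.8, CAV1, of caveolae, from 161 to 53.7, KRT18, KRT8 and LGALS1, while AXL, at 329 and 210 FPKM, and VIM were not called. Of 10 tubulins 5 fell and 1 rose, and of 16 splicing SR proteins and CLK kinases 7 fell and 0 rose, SRSF2 from 45.8 to 18.8.

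A further pattern, noticed after the data were seen and described without a test, concerns gene size. Of 764 nuclear protein-coding genes that span more than 200 kb, exons and introns together, 141 (18.5%) were at least 2-fold lower in 1-SO UV-A and 12 (1.57%) at least 2-fold higher. Over all 11246 such genes these shares were 5.52% and 3.89%. In the test 190 of the 764 (24.9%) fell and 29 (3.8%) rose, against 10.7% and 6.54% over all. Of genes of 100 to 200 kb 5.11% were lower and 1.65% higher, the first near the share over all and the second near that of the longest genes. The 764 genes had a median of 6.02 FPKM in vehicle dark, against 9.34 for genes of 100 to 200 kb, and the share was also higher at similar level: it was 25.6%, 12.4% and 16.0% for long genes at 1 to 5, 5 to 20 and over 20 FPKM, against 3.45%, 4.87% and 5.97% for genes under 20 kb. In vehicle UV-A 31 of the 764 (4.06%) were at least 2-fold lower, against 0.702% over all, and in 1-SO dark 0 of the 764, against 0.124%. For 1-S with UV-A in round 2 the shares were 6.28% and 5.77%. Across the 11246 genes the rank correlation (Spearman) of span with the 1-SO UV-A ratio was -0.04. The 15 lowest genes had a median span of 16.6 kb, against 32.7 kb over all.

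The 4 long genes that follow were taken from the 15 lowest ratios, so their low level in 1-SO UV-A was set by that choice. Their levels show the order of the round 1 libraries. In round 2, NEGR1 was at 4.04 FPKM in vehicle dark and 4.01 in vehicle UV-A. NEGR1, a neuronal adhesion molecule that spans 880.0 kb in the round 1 annotation, on chromosome 1 (71395940 to 72282734, GRCh38, minus strand), was at 8.58 FPKM in vehicle dark, 9 in 1-SO dark, 2.29 in vehicle UV-A and 0.914 for 1-SO UV-A. EXOC4, a subunit of the exocyst on chromosome 7 (133253073 to 134066589, plus strand), was at 9.28, 9.33, 3.49 and 1.82, and CDH4, a cadherin on chromosome 20 (61252426 to 61940617, plus strand), at 20.9, 19.5, 7.69 and 3.86. FHOD3, a formin on chromosome 18 (36297714 to 36780055, plus strand), was at 9.36, 9.58, 4.24 and 1.43. All 4 fell in the edgeR test, of which DESeq2 called FHOD3 alone; the dark libraries lay together and both irradiated libraries lay below, 1-SO UV-A lowest. An exception was ANKFN1, which spans 401.0 kb and rose from 1.25 to 6.07 FPKM.

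**Figure D4:**
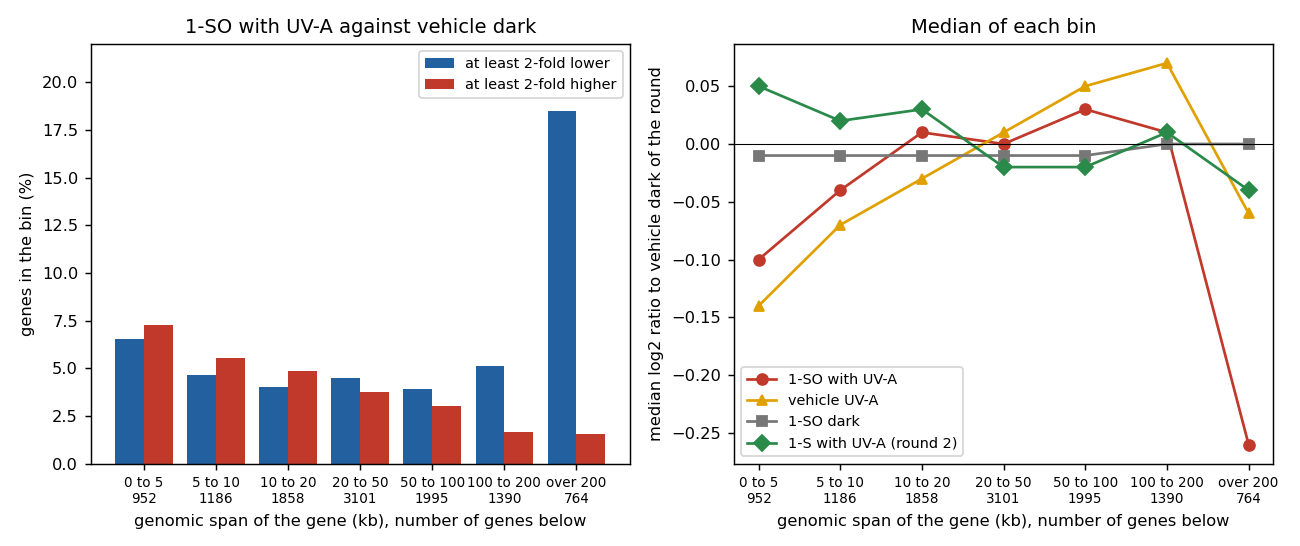
Left, share of nuclear protein-coding genes (y axis, %) at least 2-fold lower (blue) or higher (red) in 1-SO UV-A against vehicle dark, by genomic span in kb (x axis, number of genes below each bin); right, median log2 ratio of the same bins in 4 comparisons, each with the vehicle dark library of its round. The bin over 200 kb has 18.5% lower genes and a median of -0.26 for 1-SO UV-A, against -0.06 for vehicle UV-A, 0.00 for 1-SO dark and -0.04 for 1-S with UV-A.

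Genes on either side of a level of 1 FPKM were counted without a test; a crossing of that level is not a gain or loss of expression. Only in the 1-SO UV-A library was 1 FPKM reached by 239 genes, which the filter of 1 FPKM in 2 of 8 libraries therefore left out; 115 of them were protein-coding and the highest was at 3.13 FPKM. The same count was 29 for vehicle dark, 60 for 1-SO dark and 77 for vehicle UV-A. These include SCG5, a secretory chaperone, at 0.559 FPKM (vehicle dark), 0.863 (1-SO dark), 0.97 (vehicle UV-A) and 3.13 (1-SO UV-A). MMP3, another secreted matrix metalloprotease, was at 0.29, 0.335, 0.972 and 2.28. In the other direction 132 genes, 96 of them protein-coding, were under 1 FPKM in 1-SO UV-A and at least 1 in the other 3 libraries of round 1, such as E2F2 at 4.02, 3.64, 1.78 and 0.356 FPKM. The same count was also 132 for vehicle dark, and 59 for 1-SO dark and 61 for vehicle UV-A.

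1-S, which lacks the oxo group, was given at the same dose and time and under the same lamps, so its UV-A library was set beside that of 1-SO, each against the vehicle dark library of its round. This is 1 pair of compounds; compound, round and passage changed together and cannot be told apart. In the test of the difference 163 genes (1.28%) were higher and 288 (2.27%) lower with 1-SO. At least 2-fold differences from vehicle dark numbered 1043 higher (8.22%) and 868 lower (6.84%) for 1-S. In the dark 1-S already gave 1144 higher (9.01%) and 686 lower (5.4%), while light in the vehicle of round 2 gave 145 (1.14%) and 194 (1.53%). The ATF4 targets had medians of 1.44 for 1-SO and 1.83 for 1-S, with 3 of 32 higher and 6 lower in the test of the difference. Against a median of -1.39 for the replication genes with 1-SO, that with 1-S was -1.0, with 1 of 38 higher, RRM2, and 0 lower.

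Cytosolic heat shock genes differed most by count: 20 of 24 were lower with 1-SO in the test of the difference, and the medians were -0.18 and 1.71. A gene could pass the filter of 1 FPKM through the 1-S libraries alone. Members that did so were tested because they were high with 1-S, and they were not counted apart. The lowest heat shock level was 2.03 FPKM in 1-S dark and 3.81 in 1-S UV-A, against 0.143 and 0.0146 in vehicle dark of rounds 1 and 2. HSPA1A, an inducible HSP70, was at 10.1 FPKM in vehicle dark and 15.5 with 1-SO and UV-A, against 8.39 and 801 with 1-S and UV-A. The log2 difference was -6.12 ± 0.31 (SE) with an edgeR adjusted p of 2.2e-13; HSPA1A and HSPA1B are near-identical, so reads may be shared. HSPA6, a strictly inducible HSP70, was at 0.342 and 4.47 FPKM, against 1.2 and 1022. With 1-S in the dark, HSPA1A was already at 810 FPKM and HSPA6 at 987. With 1-SO in the dark they were at 8.57 and 0.319. HSPA8, the constitutive HSP70, fell from 904 to 507 FPKM with 1-SO and UV-A and was at 368 and 787 with 1-S. Of the 28 immediate early genes 14 were lower with 1-SO, FOS at a log2 difference of -3.22 ± 0.29. The same limit of the filter holds for this list. Its lowest level was 1.3 FPKM in 1-S dark and 1.62 in 1-S UV-A, against 0.135 and 0.1 in vehicle dark of rounds 1 and 2.

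Mitochondrial and mitotic genes also differed between the compounds. The 13 mitochondrial mRNAs had medians of -1.65 with 1-SO and -0.74 with 1-S, and 3 were lower with 1-SO in the test of the difference: MT-ND3, MT-ND4L and MT-ND6. MT-ND6 was at 326 FPKM in vehicle dark of round 2, 345 in vehicle UV-A, 95.3 in 1-S dark and 71 in 1-S UV-A. Its low level with 1-S was thus shared by the dark library, while with 1-SO the dark library, at 614, lay above vehicle. Of 37 mitosis genes 6 were lower with 1-SO; CDC20, which activates the ubiquitin ligase of anaphase, was at 87.8 and 39.1 FPKM with 1-SO and at 97 and 111 with 1-S. Higher with 1-SO were SLC1A4, a neutral amino acid transporter, with 8.88 and 21.9 FPKM against 6.76 and 4.67 with 1-S, and 4 of 18 integrins and laminins, ITGA1, ITGA2, ITGAV and ITGB1. MMP1 was at 12 FPKM in vehicle dark and 20.4 in 1-S UV-A, and its log2 difference of 1.80 ± 0.50 had an edgeR adjusted p of 0.039. In round 2 the vehicle UV-A library was at 10.8 FPKM, so the log2 ratio of MMP1 under light alone was -0.14. The rounds differed here, since in round 1 vehicle UV-A, at 141 FPKM, lay above vehicle dark.

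**Figure D5:**
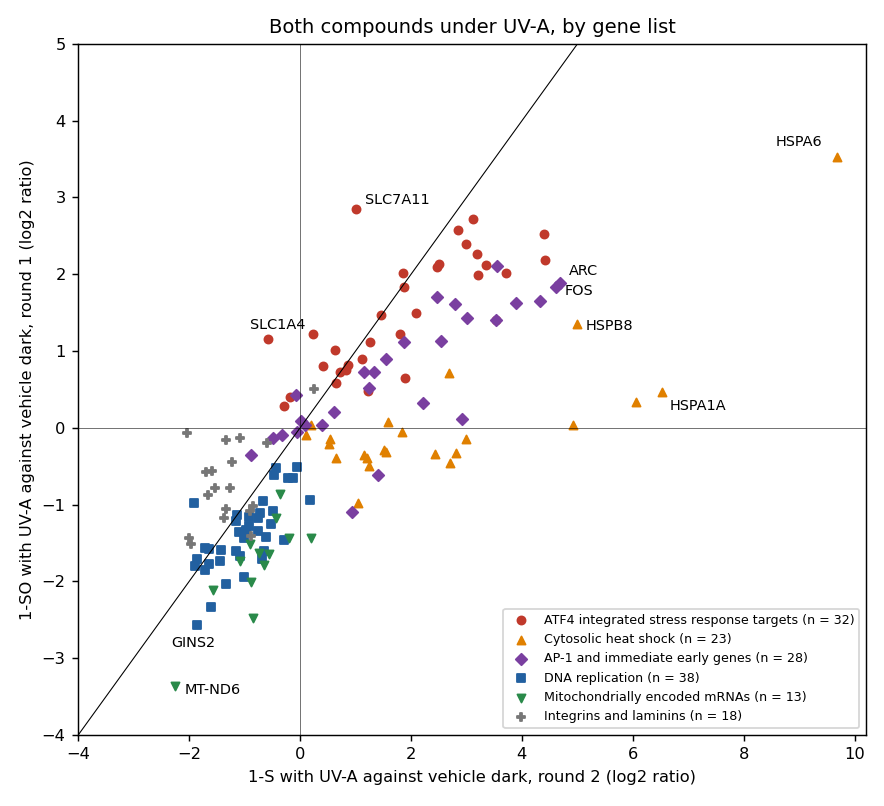
Log2 ratio to vehicle dark of the same round for 1-S with UV-A (x axis, round 2) and 1-SO with UV-A (y axis, round 1); each point is a gene of 1 of 6 lists and the diagonal marks equal ratios, with CRYAB left out because it had 0 reads in the 1-SO UV-A library. Heat shock genes lie to the right, with HSPA1A at 6.53 on the x axis and 0.47 on the y axis, while MT-ND6 is at -2.25 and -3.37.

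The calls rest on the round term in the model. Without it, the edgeR test called 0 genes in either direction for the comparison with vehicle dark, with 1901 at an unadjusted p under 0.05, and 0 for the comparison with 1-S, with 1132. DESeq2 on the same counts and terms called 198 genes higher and 500 lower against vehicle dark, and 51 and 86 against 1-S. Of 108 genes named here that edgeR called and DESeq2 tested, DESeq2 did not call 25, among them MMP1, CYP1B1, NQO1, FTL, SQSTM1 and NEGR1, with adjusted p of 0.18, 0.37, 0.63, 0.35, 0.075 and 0.084.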

How the data were processed

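Poly-T selected mRNA of 8 MDA-MB-231 libraries was sequenced. The labels do not say that the vehicle libraries of a group came from more than 1 culture each. The p-values thus rest only on the spread between these libraries, most of it pooled across genes. Per the submitters' processing notes, STAR 2.5, TopHat, STAR-Fusion, HTSeq 0.6.1, edgeR 3.16.5 and DESeq2 were used with hg19 and hg38; neither the role of each nor the strand setting is stated there. The authors deposited raw read counts and FPKM per gene; recomputing FPKM from the counts differed by at most 0.076%. Their log2 fold changes and adjusted p-values were read from the authors' deposited table. The tables of the rounds were joined by gene identifier (45341 genes). MT-RNR1 and MT-RNR2 are not analysed here.

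The 12696 genes that reached 1 FPKM in 2 or more of the 8 libraries were tested. edgeR 4.0.16 (R 4.3.3) fitted round, light in vehicle and 1 term per compound group to the counts, with TMM factors within each round, 1 residual degree of freedom and Benjamini-Hochberg adjustment over all genes tested; the fit gives light in vehicle 1 value for both rounds. The round is the replicate number of the vehicle libraries in the labels and enters as the block. Ratios of the 2 libraries used TMM-scaled CPM with 0.5 added to each count, and exact Clopper-Pearson 95% intervals. The floor of 3 reads is 0.133 to 0.19 CPM. DESeq2 1.42.0, limma 3.58.1 on log2(FPKM + 1), other scalings, filters and fold thresholds were tried.

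Named genes are the 15 highest and 15 lowest ratios among called protein-coding genes at least 2-fold apart and at 5 FPKM or more, up to 6 members with the largest ratios in each list, the most abundant members, and fixed genes; the other members named, and the genes of the level counts, were picked after their values were seen. The libraries compared and the gene lists were chosen with earlier results of these data known.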

Additional observations from a re-analysis of the deposited data

Results flagged for a closer look

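The difference between the compounds under UV-A was singled out because the edgeR test of the difference itself passed for 163 genes higher and 288 lower with 1-SO than with 1-S. Compound, round and passage cannot be told apart here. Among the named genes, SLC1A4 was higher with 1-SO by 1.95 (log2), ITGA2, the collagen-binding integrin alpha 2, by 1.86, and ITGAV, integrin alpha V, by 1.19. ITGA2 was at 70.2 FPKM in vehicle dark and 74.1 in 1-SO UV-A in round 1, and at 90.3 and 22.7 with 1-S in round 2. The inducible HSP70 genes were lower with 1-SO, with log2 differences of -6.12 for HSPA1A, -5.67 for HSPA1B and -7.23 for HSPA6, and their high levels with 1-S were present in the dark library as well. Without the round term 0 genes passed this test in either direction, with 1132 at an unadjusted p under 0.05 in edgeR.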

How the results depend on the processing

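The calls depended on the replicate block, the round that pairs the vehicle libraries. With no replicate block the edgeR count was 0 higher and 0 lower, against vehicle dark and against 1-S, and leaving out each vehicle library in turn, which is possible only without the block, gave 0 to 0 genes in each of these 4 counts (1015 to 1693 at an unadjusted p under 0.05 against vehicle dark, 859 to 967 against 1-S). With only 2 rounds, whether the rounds pair the libraries was not tested. DESeq2 called 198 higher and 500 lower against vehicle dark, and 51 and 86 against 1-S. limma on log2(FPKM + 1) called 1248 higher and 841 lower against vehicle dark, and 152 and 173 against 1-S. Under other size factors, no filter, a filter of 5 FPKM or the 2 libraries alone, the counts stayed within 1.5 times of the main ones. The 2-fold counts were 1878 higher and 1942 lower at a threshold of 1.5, 105 and 120 at 4, 379 and 331 on log2(FPKM + 1), 232 and 453 at 5 FPKM, and 4463 and 3290 with no filter. Scaling by library totals moved the median of all genes by 0.15 (log2), with 948 higher and 551 lower, and log2(FPKM + 0.1) gave 873 and 525. The cause of these differences was not tested, apart from the thresholds and filters, which set which genes are counted. Depth limits low genes: the floor of 3 reads is 0.135 CPM in 1-SO UV-A and 0.16 in vehicle dark.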
